A study of Mus musculus with 16 samples.

Results

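The lymphocyte egress and homing genes described here are 9 genes taken by symbol from the deposited tables. They are the sphingosine-1-phosphate receptor genes S1pr1, S1pr2, S1pr3, S1pr4 and S1pr5, the transcription factor gene Klf2, the activation antigen gene Cd69, and the integrin subunit genes Itgb7 and Itga4. All 9 were found among 55291 gene symbols, and all 9 were among the 18745 genes with enough counts to test. Spleens of male C57BL/6 mice, either PKR KO (lacking the kinase encoded by Eif2ak2, which double-stranded RNA activates) or wild type, were studied by sequencing of RNA depleted of ribosomal RNA. The mice received 62.5 mg of a cream with 5% imiquimod each day on shaved back skin, a treatment that sets off Toll-like receptor signalling and serves as a psoriasis model. Sampling on days 0, 1, 2 and 5 gave the groups KO_D0, KO_D1, KO_D2 and KO_D5 and the groups WT_D0, WT_D1, WT_D2 and WT_D5, with 2 libraries in each. In every group a library pooled the spleens of 2 mice after a mesh and red cell lysis, so n = 2 pools per group throughout. How Eif2ak2 was disrupted is not in the labels. With neither a group given plain cream nor an untreated group of a later day, the drug, the cream, the handling and the day of sampling cannot be told apart.

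Lymphocytes leave lymphoid organs along a gradient of sphingosine-1-phosphate (S1P), which is high in blood and lymph and low in tissue. S1PR1 is the receptor that T and B cells use for this exit. KLF2 maintains S1pr1 in resting T cells, and CD69, which appears early after activation, binds S1PR1 and removes it from the cell surface. S1PR5 serves the exit of natural killer (NK) cells and patrolling monocytes, and S1PR2 holds germinal centre B cells in place. S1PR3 is found on endothelium and marginal zone B cells, and S1PR4 on lymphoid and myeloid cells. The integrin chains encoded by Itga4 and Itgb7 pair to bind MAdCAM-1 on gut vessels, and the Itga4 chain also pairs with the Itgb1 chain to bind VCAM-1.

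Promoter sequences were compared because Kruppel-like factors, the family of KLF2, bind the letters CACCC, and because many of these genes moved together. RefSeq promoters of build GRCm38.p6 were found for 7 of the 9 genes; S1pr1 and Cd69 are named only. In the 250 bases before the gene start that RefSeq gives, CACCC was counted on both strands, where GGGTG is its form on the other strand. Itga4 and Itgb7 held 4 copies each, S1pr3 and S1pr5 2 each, and Klf2, S1pr2 and S1pr4 1 each. Of 32851 promoters of this length, 52.0% held at least 1 copy and 2.14% held 4 or more. The interferon-stimulated response element, TGANTCA of AP-1 and GTAAACA of forkhead box O factors were in none of the 7 windows. Among all promoters their shares were 2.98% for the first of these, 6.75% for TGANTCA and 3.17% for GTAAACA. A match is a run of letters and not a shown binding site. The RefSeq start can lie inside the GENCODE transcript whose counts are used here: 29 bases of the Klf2 window and 9 of the Itgb7 window, each with the match nearest the start, are within that transcript. Printed 5′ to 3′ on the gene's strand, with CACCC or GGGTG in capitals, are the promoters with the most copies and those of Klf2 and S1pr5, whose courses over the days parted. They are Klf2 at chr8:72318812-72319061 (plus strand), S1pr5 at chr9:21248444-21248693 (minus strand), Itgb7 at chr15:102231936-102232185 (minus strand) and Itga4 at chr2:79255176-79255425 (plus strand).
Klf2: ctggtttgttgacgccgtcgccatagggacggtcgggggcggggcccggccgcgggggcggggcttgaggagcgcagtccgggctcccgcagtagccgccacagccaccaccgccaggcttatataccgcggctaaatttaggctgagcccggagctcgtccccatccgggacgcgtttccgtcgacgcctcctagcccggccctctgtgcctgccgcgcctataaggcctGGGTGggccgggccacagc
S1pr5: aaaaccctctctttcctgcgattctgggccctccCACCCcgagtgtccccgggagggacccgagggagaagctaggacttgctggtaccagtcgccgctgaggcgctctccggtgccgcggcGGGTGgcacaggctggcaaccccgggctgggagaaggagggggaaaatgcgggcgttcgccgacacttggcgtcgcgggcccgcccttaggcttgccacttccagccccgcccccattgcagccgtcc
Itgb7: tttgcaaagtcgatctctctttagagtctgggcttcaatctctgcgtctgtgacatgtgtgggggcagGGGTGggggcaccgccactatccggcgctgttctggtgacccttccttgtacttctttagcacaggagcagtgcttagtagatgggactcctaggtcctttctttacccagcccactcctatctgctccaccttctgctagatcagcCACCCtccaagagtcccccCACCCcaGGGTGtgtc
Itga4: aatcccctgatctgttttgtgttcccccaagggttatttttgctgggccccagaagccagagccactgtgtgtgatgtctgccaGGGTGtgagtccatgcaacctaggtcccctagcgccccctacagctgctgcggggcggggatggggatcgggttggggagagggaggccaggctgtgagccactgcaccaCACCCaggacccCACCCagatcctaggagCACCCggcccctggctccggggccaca

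Libraries held 35026754 to 67333830 fragments. Levels are given as CPM, the fragment count of 1 transcript per gene scaled to library depth and composition, and the 9 genes had between 76 (S1pr3) and 26034 (Itga4) fragments in a library. A change is a log2 value with the standard error (SE) that edgeR's quasi-likelihood test gave, and it was called at an adjusted p under 0.05. Eif2ak2 had 12.4 and 15.4 CPM in KO_D0, 43.01 and 37.04 in KO_D1, 47.5 and 21.5 in KO_D2, and 15.8 and 18.8 in KO_D5. Wild-type spleens had 24.9 and 26.6 CPM in WT_D0, 101 and 96.1 in WT_D1, 32.8 and 42.5 in WT_D2, and 29.2 and 30.2 in WT_D5. All PKR KO libraries held Eif2ak2 RNA, and how the gene was disrupted is not in the labels, so this level cannot settle a library's genotype. The library labelled KO_D2 replicate 1 was the only PKR KO library above both wild-type libraries of its day. Changes of the 9 genes that use KO_D2 are therefore also given with it left out. The same holds for counts that this moves in the lists of other egress and homing genes. Marker counts are given with that library kept, and some of them move without it. The alternatives whose ranges of adjusted p follow are 8 other settings and leaving out each library of the groups compared. Composition differed most in WT_D1, where the scaling factors were 1.195 and 1.204, with 0.9331 to 1.069 elsewhere. Without composition scaling, the median log2 change of all genes in WT_D1 against WT_D0 was 0.224 in place of -0.07, and the calls split into 6260 higher and 2252 lower, in place of 4108 and 4254.

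In both genotypes most of the 9 genes fell on day 1 and day 2, and none rose. Against day 0, 7 of 9 fell on day 1 in PKR KO spleens, where 20.9% of all genes tested were called lower and 20.7% higher. In wild-type spleens 7 of 9 fell, where 22.7% of all genes were called lower and 21.9% higher. On day 2, 8 of 9 fell in PKR KO spleens, with 25.6% of all genes lower and 24.0% higher. That day 7 of 9 fell in wild-type spleens, with 23.0% of all genes lower and 22.3% higher. By day 5, 6 were lower and 1 was higher in PKR KO spleens, with 22.1% of all genes lower and 22.8% higher. The wild-type counts of that day were also 6 and 1, with 18% of all genes lower and 21.5% higher. S1pr1, S1pr3, S1pr4, Klf2 and Itgb7 were called lower on all 3 treated days in both genotypes, S1pr5 was the gene that was higher on day 5, and S1pr2 was never called.

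The median log2 change of the 9 genes in PKR KO spleens was -1.30 on day 1, -1.38 on day 2 and -0.70 on day 5, and that of all genes -0.04, -0.06 and -0.03. In wild-type spleens the 9 genes had -1.04 on day 1, -1.11 on day 2 and -1.01 on day 5, and all genes -0.07, -0.06 and -0.01. Leaving out the library labelled KO_D2 replicate 1, 8 of 9 genes were still called lower on day 2 in PKR KO spleens, with -1.62 for S1pr4, -1.79 for S1pr5 and -2.04 for Itgb7, in place of -1.34, -1.69 and -2.04. The 3 comparisons of a genotype share its day 0 libraries. Since the spleen is a mixture, fewer cells of a type and less RNA per cell cannot be told apart in any of these values.

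**Figure D1:**
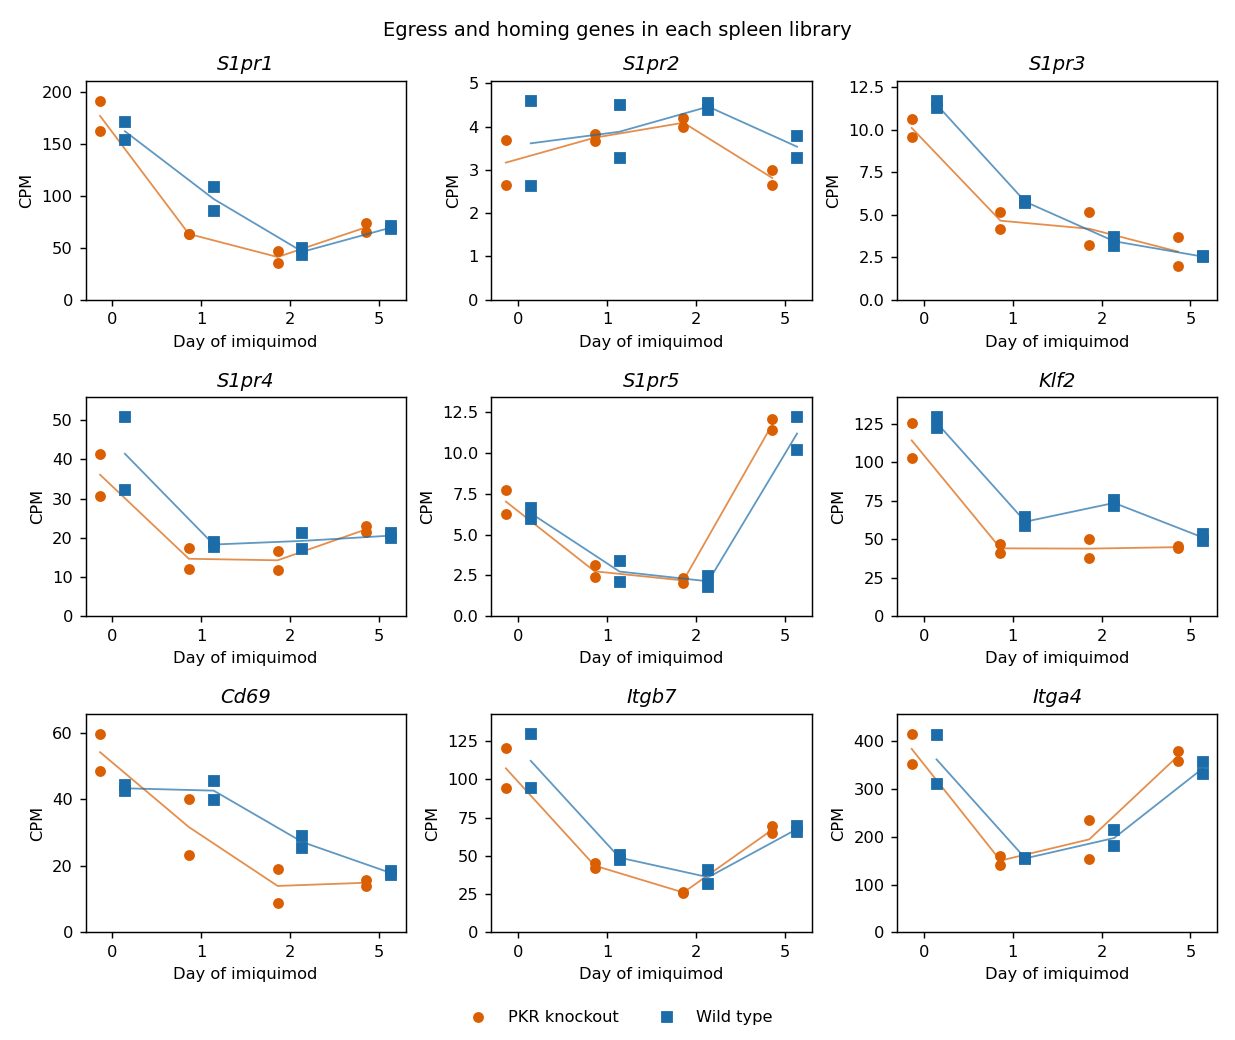
CPM of each of the 9 genes in every library (vertical axes start at 0) by day of imiquimod; circles are PKR KO pools, squares wild-type pools, and lines join the group means. S1pr1 averaged 41.1 CPM in KO_D2 against 177 in KO_D0, and S1pr5 averaged 11.8 CPM in KO_D5 against 7.02 in KO_D0.

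S1pr1, the egress receptor gene of T and B cells (chromosome 3, 115710433 to 115715072, minus strand, mm10), was lowest on day 2 and had partly returned on day 5. PKR KO spleens had 162 and 191 CPM in KO_D0, 62.9 and 63.6 in KO_D1, 46.8 and 35.3 in KO_D2, and 65.4 and 74.1 in KO_D5. Wild-type spleens had 171 and 153 CPM in WT_D0, 84.97 and 109 in WT_D1, 49.3 and 42.9 in WT_D2, and 70.7 and 68.1 in WT_D5. Every treated library was below every day 0 library, and the KO_D2 and WT_D2 libraries overlapped at the bottom of the range. Between day 2 and day 0 the log2 change was -2.11 in PKR KO spleens (SE 0.153, adjusted p = 3.33e-09), a 4.30-fold lower level. In wild-type spleens it was -1.81 (SE 0.151, adjusted p = 2.31e-08), a 3.51-fold lower level. With the library labelled KO_D2 replicate 1 left out, the knockout value was -2.32 (adjusted p = 6.62e-09). The early fall was -1.48 (adjusted p = 4.25e-07) on day 1 in PKR KO spleens and -0.74 (adjusted p = 0.000495) in wild-type spleens.

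After day 2, S1pr1 rose again by day 5, by 0.76 (adjusted p = 0.000489) in PKR KO spleens and by 0.59 (adjusted p = 0.00497) in wild-type spleens. It was then still below day 0, at -1.34 (adjusted p = 8.36e-07) in PKR KO and -1.22 (adjusted p = 3.52e-06) in wild-type spleens. The wild-type rise was no longer called without WT_D2 replicate 2 (adjusted p = 0.0688, with 0.000147 to 0.0688 among these alternatives). The step between days 1 and 2, -0.62 (adjusted p = 0.00517) in PKR KO and -1.07 (adjusted p = 3.9e-05) in wild-type spleens, was no longer called in PKR KO spleens without KO_D2 replicate 2 (adjusted p = 0.102, with 0.000104 to 0.102 among these alternatives). Beside it, the 12 T cell markers summed to 75.9 to 157 CPM in KO_D2 against 597 to 611 in KO_D0, and to 128 to 138 in WT_D2 against 579 to 641 in WT_D0. Their part in the fall of S1pr1 was not tested.

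S1pr3, the receptor gene of endothelium and marginal zone B cells (chromosome 13, 51408639 to 51422797, plus strand), fell and did not return. S1pr3 levels in PKR KO spleens were 9.59 and 10.6 CPM in KO_D0, 5.15 and 4.14 in KO_D1, 5.13 and 3.21 in KO_D2, and 1.97 and 3.69 in KO_D5. Wild-type levels were 11.7 and 11.3 CPM in WT_D0, 5.69 and 5.83 in WT_D1, 3.18 and 3.69 in WT_D2, and 2.53 and 2.54 in WT_D5. The day 0 libraries were above all treated ones, and day 5 had the lowest mean in both genotypes, although KO_D5 overlapped KO_D2. On day 5 the log2 change was -1.85 in PKR KO spleens (SE 0.244, adjusted p = 6.98e-06) and -2.18 in wild-type spleens (SE 0.243, adjusted p = 1.31e-06). These are levels 3.60-fold lower in KO_D5 and 4.52-fold lower in WT_D5. Leaving out the library labelled KO_D2 replicate 1, the day 2 value in PKR KO spleens was -1.65, in place of -1.28 (adjusted p = 0.000186). The wild-type fall between days 1 and 2 (-0.74, adjusted p = 0.0227) was no longer called without WT_D1 replicate 1 (0.0737), WT_D1 replicate 2 (0.0956), WT_D2 replicate 1 (0.174) or WT_D2 replicate 2 (0.065), with 0.00104 to 0.174 among these alternatives. Endothelial and stromal markers moved the other way on day 5, when 6 of 9 rose in PKR KO and 7 of 9 in wild-type spleens. Of all genes that day, 22.8% were called higher and 22.1% lower in PKR KO spleens. The wild-type shares were 21.5% higher and 18% lower. The endothelial and stromal markers summed to 109 to 124 CPM in KO_D5 against 94.8 to 98.7 in KO_D0, and to 112 to 128 in WT_D5 against 99.5 to 103 in WT_D0. Before day 5 these sums were below day 0. They were 81.6 to 86.7 CPM in KO_D1, 79.4 to 81.0 in KO_D2, 80.7 to 91.3 in WT_D1 and 75.7 to 77.8 in WT_D2. By gene, 7 of 9 rose and 1 fell on day 2 in PKR KO spleens, where 24.0% of all genes were called higher. In wild-type spleens 3 rose and 1 fell, where 22.3% were called higher. Of 9 B cell markers, 8 fell on day 5 in PKR KO and 8 in wild-type spleens. They summed to 1193 to 1357 CPM in KO_D5 against 2266 to 2335 in KO_D0, and to 1237 to 1509 in WT_D5 against 2152 to 2361 in WT_D0. The part of either list in the S1pr3 values was not tested.

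S1pr4, a receptor gene of lymphoid and myeloid cells (chromosome 10, 81497747 to 81500132, minus strand), fell on day 1 and stayed below day 0. Its PKR KO levels were 41.4 and 30.8 CPM in KO_D0, 11.97 and 17.3 in KO_D1, 16.7 and 11.8 in KO_D2, and 21.4 and 22.9 in KO_D5. Its wild-type levels were 50.8 and 32.1 CPM in WT_D0, 18.8 and 17.8 in WT_D1, 21.1 and 17.3 in WT_D2, and 21.2 and 19.9 in WT_D5. The libraries of each day 0 group were far apart, but all treated libraries lay below them. On day 1 the log2 change was -1.30 in PKR KO spleens (SE 0.239, adjusted p = 0.000725) and -1.18 in wild-type spleens (SE 0.235, adjusted p = 0.00125). Day 5 gave -0.70 (adjusted p = 0.0267) in PKR KO and -1.01 (adjusted p = 0.00419) in wild-type spleens. The knockout call of day 5 was lost without KO_D0 replicate 1 (0.273), KO_D5 replicate 1 (0.179) or KO_D5 replicate 2 (0.102), and without composition scaling (0.0539), with 2.01e-05 to 0.273 among these alternatives. The wild-type call of day 5 was lost without WT_D0 replicate 1 (0.0527), with 6.14e-11 to 0.0527 among these alternatives.

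S1pr5, the receptor gene of NK cell exit (chromosome 9, 21242912 to 21248443, minus strand), fell first and then rose above day 0. In PKR KO spleens S1pr5 had 7.76 and 6.29 CPM in KO_D0, 2.38 and 3.12 in KO_D1, 2.34 and 2.03 in KO_D2, and 11.4 and 12.1 in KO_D5. In wild-type spleens S1pr5 had 6.65 and 5.97 CPM in WT_D0, 3.40 and 2.06 in WT_D1, 2.45 and 1.81 in WT_D2, and 12.2 and 10.2 in WT_D5. The 2 genotypes overlapped on every day, while day 5 lay above day 0, and day 0 above days 1 and 2, without overlap. On day 2 the log2 change was -1.69 in PKR KO spleens (SE 0.236, adjusted p = 1.02e-05) and -1.58 in wild-type spleens (SE 0.234, adjusted p = 2.38e-05). Day 5 was 5.38-fold above day 2 in PKR KO spleens (log2 2.43, SE 0.236, adjusted p = 2.13e-07) and 5.31-fold above it in wild-type spleens (log2 2.41, SE 0.235, adjusted p = 3.85e-07). The rise over day 0 was 0.74 (adjusted p = 0.00859) in PKR KO and 0.83 (adjusted p = 0.0046) in wild-type spleens. It was no longer called in PKR KO spleens without KO_D0 replicate 2 (adjusted p = 0.0675, with 0.000397 to 0.0675 among these alternatives).

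On day 5, 6 of 7 NK cell markers fell in PKR KO spleens and 7 of 7 in wild-type spleens, and 0 rose in PKR KO and 0 in wild-type spleens. Of all genes that day, 22.1% were called lower in PKR KO and 18% in wild-type spleens. The NK cell markers summed to 54.8 to 59.2 CPM in KO_D5 against 131 to 139 in KO_D0, and to 54.7 to 69.7 in WT_D5 against 92.1 to 114 in WT_D0. On day 1 the sums were 89.6 to 92.6 CPM in KO_D1 and 92.9 to 112 in WT_D1, the latter within the range of WT_D0. Day 2 had 59.6 to 67.0 CPM in KO_D2 and 65.4 to 66.4 in WT_D2. The part of these markers in the S1pr5 values was not tested. Among the 3 genes whose group means were most like those of S1pr5 was Cx3cr1, a chemokine receptor gene of patrolling monocytes and NK cells (Pearson r = 0.993 over the 8 groups).

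S1pr2, the receptor gene of B cell confinement in germinal centres (chromosome 9, 20962361 to 20976781, minus strand), was low and passed no test with all libraries. PKR KO spleens had 3.69 and 2.65 CPM in KO_D0, 3.82 and 3.67 in KO_D1, 4.20 and 3.98 in KO_D2, and 2.64 and 2.99 in KO_D5. Wild-type spleens had 4.60 and 2.64 CPM in WT_D0, 4.50 and 3.27 in WT_D1, 4.38 and 4.55 in WT_D2, and 3.28 and 3.79 in WT_D5. Most groups overlapped. Its largest log2 difference between days was -0.54 from day 2 to day 5 in PKR KO spleens (SE 0.253, adjusted p = 0.108). The standard errors of its changes between days were 0.238 to 0.254, and they set how small a change could be seen. Leaving out the library labelled KO_D2 replicate 1, that difference was -0.50 (adjusted p = 0.246). Without WT_D0 replicate 2, which enters it through the shared spread, it passed (0.0479).

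Klf2, the transcription factor gene that maintains S1pr1 in resting T cells (chromosome 8, 72319033 to 72321656, plus strand), fell on day 1 and stayed down in both genotypes. In PKR KO spleens Klf2 had 126 and 103 CPM in KO_D0, 40.99 and 47.1 in KO_D1, 37.4 and 50.3 in KO_D2, and 45.6 and 44.03 in KO_D5. In wild-type spleens Klf2 had 129 and 122 CPM in WT_D0, 58.6 and 64.2 in WT_D1, 75.7 and 71.5 in WT_D2, and 49.1 and 53.1 in WT_D5. Treated libraries were all below those of day 0, and on each treated day both PKR KO libraries were below both wild-type libraries. The log2 changes in PKR KO spleens were -1.37 (adjusted p = 4.65e-07) on day 1, -1.38 (adjusted p = 2.05e-07) on day 2 and -1.35 (adjusted p = 3.48e-07) on day 5. Those in wild-type spleens were -1.04 (adjusted p = 1.06e-05) on day 1, -0.77 (adjusted p = 0.000153) on day 2 and -1.30 (adjusted p = 7.5e-07) on day 5. Between days 2 and 5 the wild-type level fell, with a log2 change of -0.53 (adjusted p = 0.00696), a call lost without WT_D2 replicate 1 (0.0558) or WT_D5 replicate 1 (0.074), with 0.000658 to 0.074 among these alternatives. Leaving out the library labelled KO_D2 replicate 1, the knockout change on day 2 was -1.19 (adjusted p = 4.88e-06).

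The genes most like Klf2 over the 8 group means included Cd79a, a signalling chain gene of the B cell receptor (r = 0.989), and Siglecg, an inhibitory receptor gene of B cells (0.983). B cell markers summed to 1606 to 1657 CPM in KO_D1 against 2266 to 2335 in KO_D0, and to 1690.5 to 2041 in WT_D1 against 2152 to 2361 in WT_D0. Day 2 had 1318 to 1463 CPM in KO_D2 and 1498 to 1656 in WT_D2. From WT_D1 to WT_D2 the mean sum went from 1866 to 1577 CPM. Mean Klf2 went the other way there, from 61.4 to 73.6 CPM (log2 change 0.26, adjusted p = 0.155, not called). The part of the B cell markers in the Klf2 values was not tested.

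Cd69, the early activation antigen gene whose product retains lymphocytes (chromosome 6, 129267325 to 129275436, minus strand), had its highest mean in KO_D0 and was lower by day 5 in both genotypes. PKR KO spleens had 48.6 and 59.8 CPM in KO_D0, 40.2 and 23.2 in KO_D1, 8.77 and 19.2 in KO_D2, and 14.04 and 15.8 in KO_D5. Wild-type spleens had 44.2 and 42.5 CPM in WT_D0, 39.7 and 45.5 in WT_D1, 28.98 and 25.3 in WT_D2, and 18.5 and 17.1 in WT_D5. The replicates of KO_D1 and of KO_D2 lay far apart, and the WT_D0 and WT_D1 libraries overlapped. On day 2 the log2 change was -1.95 in PKR KO spleens (SE 0.333, adjusted p = 0.000699) and -0.68 in wild-type spleens (SE 0.319, adjusted p = 0.113). The knockout value was -1.50 (adjusted p = 0.000325) with the library labelled KO_D2 replicate 1 left out and -2.57 (adjusted p = 4.41e-06) without KO_D2 replicate 2. Day 5 gave -1.86 (adjusted p = 0.00114) in PKR KO and -1.28 (adjusted p = 0.0104) in wild-type spleens. Day 1 gave -0.78 (adjusted p = 0.0766) in PKR KO and -0.02 (adjusted p = 0.958) in wild-type spleens, neither past the threshold.

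Several Cd69 calls changed with 1 library left out. The knockout fall between days 1 and 2 (-1.18, adjusted p = 0.0286) was lost without KO_D1 replicate 1 (0.25) or the library labelled KO_D2 replicate 1 (0.0676), with no filter (0.0657) and with isoforms summed (0.0768). It was -1.82 without KO_D2 replicate 2, with an adjusted p of 0.000284 to 0.25 among these alternatives. The wild-type day 5 call was lost without WT_D0 replicate 1 (0.0642), WT_D5 replicate 1 (0.0616) or WT_D5 replicate 2 (0.0787), with 0.00152 to 0.0787 among these alternatives. The knockout day 1 change passed without KO_D1 replicate 1 (0.0269) and with isoforms summed (0.00377), with 0.00377 to 0.362 among these alternatives. Libraries of other days enter these tests through the shared spread. Without the library labelled KO_D2 replicate 1, Cd69 passed on day 1 in PKR KO spleens (0.00527) and on day 2 in wild-type spleens (0.0111). Of the 12 libraries outside KO_D1 and KO_D2, leaving out 9 ended the knockout call between these days.

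The integrin genes Itgb7 and Itga4 fell together on day 1 and parted by day 5. For Itgb7, the beta chain gene of the gut-homing integrin (chromosome 15, 102215995 to 102231944, minus strand), PKR KO spleens had 120.2 and 94.2 CPM in KO_D0, 41.9 and 45.3 in KO_D1, 26.00 and 26.1 in KO_D2, and 64.7 and 69.4 in KO_D5. Wild-type spleens had 129.9 and 94.3 CPM in WT_D0, 50.5 and 47.2 in WT_D1, 40.7 and 31.4 in WT_D2, and 69.5 and 65.7 in WT_D5. Day 2 was lowest in each genotype. Both KO_D2 libraries were below both WT_D2 libraries, but the genotype difference was not called (log2 -0.47, SE 0.156, adjusted p = 0.819 by edgeR). That difference is given with all libraries only. Its log2 change on day 2 was -2.04 in PKR KO spleens (SE 0.159, adjusted p = 8.35e-09), 4.11-fold lower, and -1.64 in wild-type spleens (SE 0.156, adjusted p = 1.26e-07), 3.11-fold lower. After day 2 it rose by 1.36 (adjusted p = 1.61e-06) in PKR KO and by 0.91 (adjusted p = 0.000176) in wild-type spleens. On day 5 it was still below day 0, at -0.68 (adjusted p = 0.00141) in PKR KO and -0.73 (adjusted p = 0.000946) in wild-type spleens. The knockout day 5 call was lost without KO_D0 replicate 1 (0.0646, with 9.55e-06 to 0.0646 among these alternatives). The wild-type fall between days 1 and 2 (-0.44, adjusted p = 0.0354) was lost without WT_D1 replicate 1 (0.164), WT_D1 replicate 2 (0.0876) or WT_D2 replicate 2 (0.365), with 0.000852 to 0.365 among these alternatives. Leaving out any 1 of 4 libraries of other groups also ended it.

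For Itga4, the alpha chain gene shared by the MAdCAM-1 and VCAM-1 receptors (chromosome 2, 79255500 to 79333123, plus strand), PKR KO spleens had 351 and 416 CPM in KO_D0, 141 and 159 in KO_D1, 235 and 154 in KO_D2, and 379 and 359 in KO_D5. Wild-type spleens had 309.8 and 413 CPM in WT_D0, 156 and 154 in WT_D1, 214 and 181 in WT_D2, and 356 and 330.3 in WT_D5. The day 5 libraries lay within the range of day 0, unlike those of Itgb7. On day 1 the log2 change was -1.35 in PKR KO spleens (SE 0.177, adjusted p = 9.55e-06) and -1.22 in wild-type spleens (SE 0.176, adjusted p = 2.81e-05). After day 2 it rose by 0.92 (adjusted p = 0.000429) in PKR KO and by 0.80 (adjusted p = 0.00189) in wild-type spleens, and on day 5 it stood at -0.06 (adjusted p = 0.822) against day 0 in PKR KO and -0.08 (adjusted p = 0.761) in wild-type spleens, with an SE of 0.173 in each. With the library labelled KO_D2 replicate 1 left out, the knockout change on day 2 was -1.32 (adjusted p = 1.04e-05), in place of -0.98 (adjusted p = 0.000157). Its other partner gene, Itgb1, had 154 and 148 CPM in KO_D5 against 79.97 and 72.1 in KO_D2, a log2 rise of 0.99 (adjusted p = 9.46e-07), or 1.07 (adjusted p = 6.83e-06) with the library labelled KO_D2 replicate 1 left out. In wild-type spleens Itgb1 had 156 and 158 CPM in WT_D5 against 79.2 and 74.6 in WT_D2, a rise of 1.03 (adjusted p = 9.14e-07). Erythroid precursor markers, 7 of 7 of which rose on day 5 in both genotypes, summed to 3201 to 4086 CPM in KO_D5 against 142 to 247 in KO_D0, and to 1924 to 2324 in WT_D5 against 87.5 to 237 in WT_D0. Of all genes, 22.8% were called higher that day in PKR KO and 21.5% in wild-type spleens. The part of the erythroid precursor markers in the Itga4 and Itgb1 values was not tested.

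**Figure D2:**
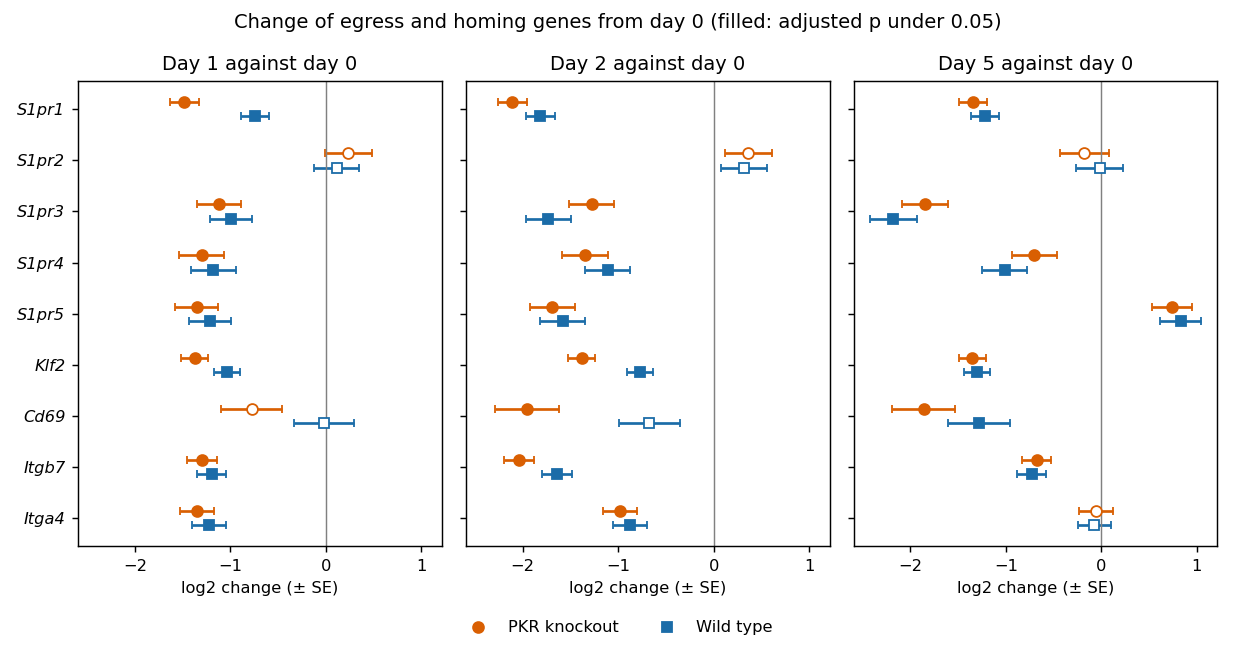
Log2 change of the 9 genes on each treated day against day 0 (bars ± SE), PKR KO as circles and wild type as squares, filled where the adjusted p is under 0.05. S1pr2 is open throughout, S1pr5 is above 0 only on day 5, and Itga4 is back near 0 on day 5 (-0.06 in PKR KO, -0.08 in wild type).

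Between treated days, 3 of 9 genes fell after day 1 in PKR KO spleens by day 2 (S1pr1, Cd69 and Itgb7), where 10.6% of all genes were called lower. In wild-type spleens 3 of 9 fell (S1pr1, S1pr3 and Itgb7), where 15.1% were. After day 2, S1pr1, S1pr5, Itgb7 and Itga4 rose by day 5 in PKR KO spleens, where 18.4% of all genes were called higher and 16% lower, and none of the 9 fell. The same 4 genes rose in wild-type spleens, where 16.2% were called higher and 13.1% lower, and Klf2 fell. With the library labelled KO_D2 replicate 1 left out, S1pr4 also rose after day 2 in PKR KO spleens, by 0.91 (adjusted p = 0.0315), in place of 0.64 (adjusted p = 0.0561). The rises then were 0.98 for S1pr1, 2.53 for S1pr5, 1.36 for Itgb7 and 1.26 for Itga4. The falls after day 1 then were -0.85 for S1pr1, in place of -0.62, and -0.75 for Itgb7, in place of -0.74, both still called. Without composition scaling, S1pr5 (-0.69, adjusted p = 0.0301) and Cd69 (-0.98, adjusted p = 0.0141) also fell between WT_D1 and WT_D2, but that setting put the median of all genes at -0.343.

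Per transcript length, as the authors' FPKM without composition scaling, the 9 genes spanned a wide range. The mean FPKM over the 4 libraries of day 0 was 62.6 for Klf2, 53.4 for S1pr1, 39.4 for Itgb7, 36.5 for Itga4 and 27.7 for Cd69. It was 15.7 for S1pr4, 2.56 for S1pr5, 2.33 for S1pr3 and 0.514 for S1pr2, so that S1pr1 had the highest level of the 5 receptor genes. By day 5 the order differed. Itga4 then had the highest mean of the 9, 35.9 FPKM in PKR KO and 34.9 in wild-type spleens. S1pr5 stood at 4.46 FPKM in KO_D5 and 4.45 in WT_D5, and S1pr3 at 0.601 in KO_D5 and 0.564 in WT_D5.

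**Figure D3:**
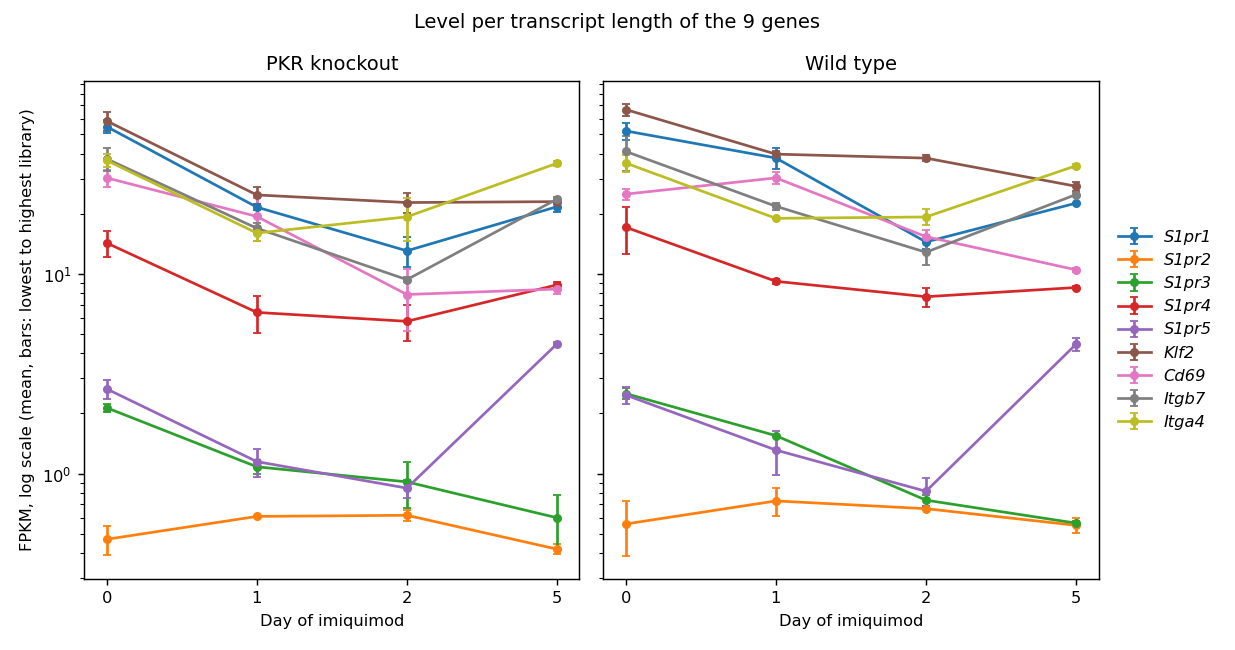
Mean FPKM (log scale) of the 9 genes by day in PKR KO (left) and wild-type (right) spleens; bars run from the lower to the higher library. Klf2 and S1pr1 lead on day 0 and Itga4 on day 5, when S1pr5 reaches 4.46 FPKM in PKR KO and 4.45 in wild-type spleens.

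Knockout and wild type were compared on each day to ask whether PKR bears on these levels. By edgeR's quasi-likelihood test, none of the 9 genes differed on day 0, when 0.0213% of all genes were called, on day 1 (0.187%), on day 2 (0%), on day 5 (0.00533%) or averaged over days (0.0267%). An unadjusted p under 0.05 was reached by 0 of the 9 on day 0, 2 on day 1, 3 on day 2, 0 on day 5 and 3 averaged over days. Of all 18745 genes it was reached by 1114 on day 0, 1718 on day 1, 906 on day 2, 1177 on day 5 and 1044 averaged. DESeq2 called 0 on day 0, 1 on day 1, 1 on day 2, 0 on day 5 and 1 averaged. Klf2 averaged 44.1 ± 4.33 CPM in KO_D1 and 61.4 ± 3.94 in WT_D1 (SD, n = 2 each), a log2 difference of -0.48 (SE 0.137, adjusted p = 0.179 by edgeR, with 0.00924 to 0.904 among these alternatives). It passed with no filter (0.00924), without composition scaling (0.0492) and with the GC correction and replicate block (0.0416). On day 2, Klf2 averaged 43.9 ± 9.09 CPM in KO_D2 and 73.6 ± 3.04 in WT_D2, a difference of -0.75 (SE 0.138, adjusted p = 0.264, with 5.88e-05 to 1.0 among these alternatives). That difference passed with no filter (5.88e-05), with DESeq2 (0.00599) and without KO_D2 replicate 2 (0.0086). With the library labelled KO_D2 replicate 1 left out it was -0.55 (adjusted p = 0.341). Averaged over days, the log2 difference of Klf2 was -0.39 (SE 0.0687, adjusted p = 0.0669, with 4.93e-06 to 0.323 among these alternatives). This passed without WT_D0 replicate 2 (0.0433), the library labelled KO_D2 replicate 1 (-0.34, 0.0433) or KO_D2 replicate 2 (0.00186), with DESeq2 (0.00151), with no filter (4.93e-06) and without composition scaling (0.0112).

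S1pr1 averaged 63.2 ± 0.520 CPM in KO_D1 and 96.8 ± 16.8 in WT_D1 (SD), and both PKR KO pools were lower. The log2 difference was -0.61 (SE 0.147, adjusted p = 0.0982 by edgeR, with 0.000178 to 0.885 among these alternatives), and it passed with DESeq2 (0.0191), with no filter (0.000178) and without composition scaling (0.0329). It also passed without WT_D0 replicate 1 (0.0388), WT_D0 replicate 2 (0.0471), the library labelled KO_D2 replicate 1 (0.0394) or KO_D2 replicate 2 (0.0373), which enter through the shared spread. Without composition scaling, all genes had a median of -0.221 in this comparison. T cell markers summed to 282 to 321 CPM in KO_D1 against 361 to 393 in WT_D1, and their part in the S1pr1 values was not tested. Cd69 averaged 13.97 ± 7.36 CPM in KO_D2 and 27.2 ± 2.58 in WT_D2 (SD), a difference of -0.95 (SE 0.329, adjusted p = 0.915 by edgeR). It passed without KO_D2 replicate 2 (0.0279, with 0.0279 to 1.0 among these alternatives), and with the library labelled KO_D2 replicate 1 left out it was -0.50 (adjusted p = 0.586).

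The change of each gene since day 0 was also compared between the genotypes. By edgeR none of the 9 differed in its change to day 1, where 0.171% of all genes were called, to day 2 (0%) or to day 5 (0%). An unadjusted p under 0.05 was reached by 1 gene on day 1, 2 on day 2 and 0 on day 5, and by 2463, 762 and 1483 of all 18745 genes. DESeq2 called 0 on day 1, 0 on day 2 and 0 on day 5. For S1pr1 the difference in change to day 1 was -0.74 (SE 0.206, adjusted p = 0.151), which passed with no filter, with 0.00503 to 0.55 among these alternatives. For Klf2 the difference to day 2 was -0.61 (adjusted p = 1.0), and -0.41 (adjusted p = 0.709) with the library labelled KO_D2 replicate 1 left out. For Cd69 the difference to day 2 was -1.28 (adjusted p = 1.0), and -0.83 (adjusted p = 0.699) with that library left out.

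**Figure D4:**
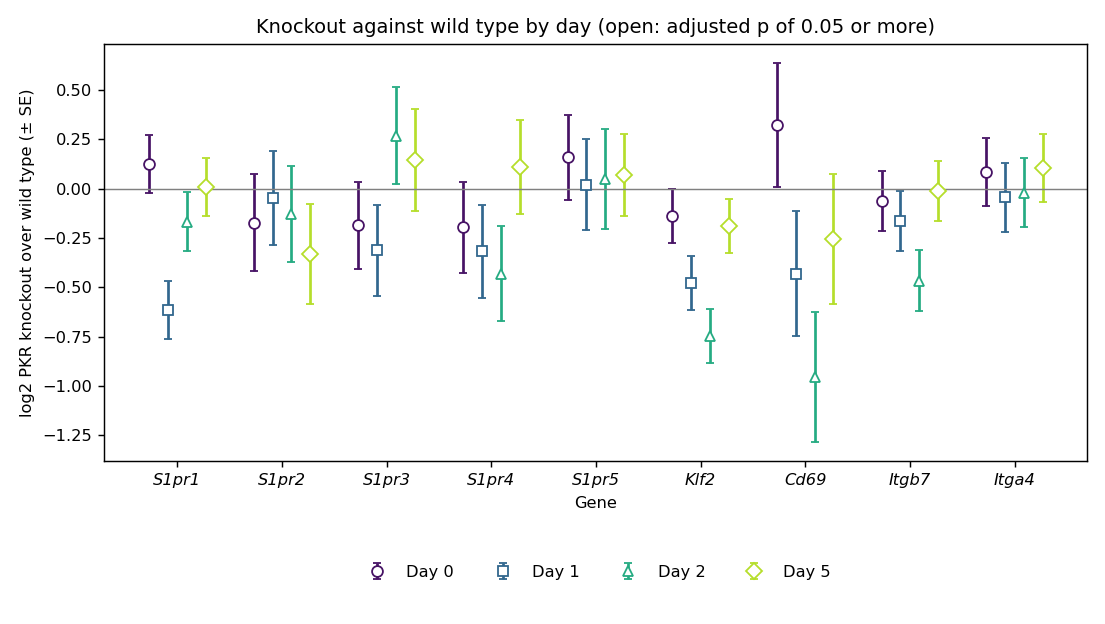
Log2 difference of PKR KO over wild type for each gene by day (bars ± SE; 0 is no difference). All symbols are open, since none passed an adjusted p of 0.05; those of Klf2 lie below 0 on all 4 days and reach -0.75 on day 2.

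Among 10 other genes of S1P supply and removal, 3 fell and none rose on day 1 in each genotype, when the calls over all genes were 20.9% lower and 20.7% higher in PKR KO and 22.7% lower and 21.9% higher in wild-type spleens. Spns2, the endothelial exporter that supplies S1P to lymph, had 1.76 and 2.07 CPM in KO_D1 against 9.99 and 8.27 in KO_D0 (log2 change -2.25, adjusted p = 5.84e-07). In wild-type spleens Spns2 had 1.74 and 2.66 CPM in WT_D1 against 10.3 and 9.40 in WT_D0 (log2 change -2.15, adjusted p = 6.68e-07). The lipid phosphatase gene Plpp3 fell, at -1.11 (adjusted p = 0.00248) in PKR KO and -1.39 (adjusted p = 0.000264) in wild-type spleens, and so did the S1P phosphatase gene Sgpp1, at -0.73 (adjusted p = 6.08e-05) in PKR KO and -0.49 (adjusted p = 0.00212) in wild-type spleens. The wild-type Sgpp1 call was lost without composition scaling (adjusted p = 0.257). On day 2, 2 rose and 4 fell in each genotype, with 25.6% lower and 24.0% higher of all genes in PKR KO and 23.0% lower and 22.3% higher in wild-type spleens. In PKR KO spleens 1 rose and 3 fell that day with the library labelled KO_D2 replicate 1 left out. On day 5, 4 rose and 2 fell in each, with 22.1% lower and 22.8% higher of all genes in PKR KO and 18% lower and 21.5% higher in wild-type spleens. Sphk1, a kinase gene of S1P synthesis, had 20.2 and 14.4 CPM in KO_D5 against 0.527 and 0.546 in KO_D0 (log2 change 5.01, adjusted p = 8.91e-05). Wild-type Sphk1 had 12.6 and 18.2 CPM in WT_D5 against 0.464 and 0.937 in WT_D0 (log2 change 4.41, adjusted p = 0.000182). Mfsd2b, the S1P exporter gene of red cells, had 67.7 and 51.3 CPM in KO_D5 against 2.85 and 3.38 in KO_D0 (log2 change 4.26, adjusted p = 1.61e-05). Wild-type Mfsd2b had 36.9 and 36.4 CPM in WT_D5 against 2.56 and 4.06 in WT_D0 (log2 change 3.45, adjusted p = 7.62e-05). Both rose on the day on which the erythroid precursor markers rose, whose part was not tested.

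Of 17 tested genes that signal downstream of these receptors or regulate them, 9 fell and none rose on day 1 in PKR KO spleens, and 8 fell and 2 rose in wild-type spleens. On day 2, 13 fell in PKR KO and 10 in wild-type spleens, and on day 5 it was 9 in PKR KO and 10 in wild-type spleens, with none rising. Day 1 had 20.9% of all genes called lower in PKR KO and 22.7% in wild-type spleens, day 2 25.6% and 23.0%, and day 5 22.1% and 18%. Of all genes, 20.7% in PKR KO and 21.9% in wild-type spleens were called higher on day 1. The day 2 count in PKR KO spleens was 13 with the library labelled KO_D2 replicate 1 left out. Klf3, a Kruppel-like factor gene, had 34.6 and 38.2 CPM in KO_D2 against 94.5 and 106 in KO_D0 (log2 change -1.46, adjusted p = 7.37e-08). In wild-type spleens Klf3 had 40.4 and 35.03 CPM in WT_D2 against 88.3 and 100.2 in WT_D0 (log2 change -1.32, adjusted p = 2.9e-07). By day 5 it stood at 138 and 112 CPM in KO_D5 and 104.7 and 88.1 in WT_D5. Foxo1, a transcription factor gene upstream of Klf2 in T cells, had 37.5 and 42.6 CPM in WT_D1 against 72.2 and 90.6 in WT_D0 (log2 change -1.02, adjusted p = 8.4e-06). Its knockout levels were also lower, at 46.8 and 46.7 CPM in KO_D1 against 71.2 and 68.7 in KO_D0. Stk4, the Mst1 kinase gene of lymphocyte migration, changed by -0.78 (adjusted p = 1.74e-05) on day 5 in PKR KO and by -0.70 (adjusted p = 8.28e-05) in wild-type spleens. It was also among the 3 genes most like S1pr1 over the 8 group means (r = 0.992). Rgs1, which dampens chemokine receptor signals, changed by 1.15 (adjusted p = 0.0408) on day 1 in wild-type spleens. That call was lost without WT_D0 replicate 1 (0.154), WT_D0 replicate 2 (0.141), WT_D1 replicate 1 (0.107) or WT_D1 replicate 2 (0.125), and with no filter (0.0819).

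Of 16 other homing receptor and adhesion genes, 6 fell and none rose on day 1 in PKR KO spleens, and 5 fell and 1 rose in wild-type spleens. On day 2, 7 fell and 2 rose in each genotype. On day 5, 8 fell in each, while 3 rose in PKR KO and 4 in wild-type spleens. Of all genes, day 1 had 20.9% lower and 20.7% higher in PKR KO and 22.7% lower and 21.9% higher in wild-type spleens. Day 5 had 22.1% lower and 22.8% higher in PKR KO and 18% lower and 21.5% higher in wild-type spleens. Day 2 had 25.6% lower and 24.0% higher in PKR KO and 23.0% lower and 22.3% higher in wild-type spleens. That day 9 fell and 2 rose in PKR KO spleens with the library labelled KO_D2 replicate 1 left out. Cxcr4, the receptor gene for retention by CXCL12, had 38.4 and 31.2 CPM in KO_D1 against 201 and 206 in KO_D0 (log2 change -2.55, adjusted p = 7.82e-10). In wild-type spleens Cxcr4 had 49.5 and 52.6 CPM in WT_D1 against 184 and 161 in WT_D0 (log2 change -1.76, adjusted p = 5.06e-08). Itgae, the other alpha chain gene whose product pairs with the Itgb7 chain, had 0.987 and 1.26 CPM in KO_D2 against 9.59 and 8.89 in KO_D0 (log2 change -3.03, adjusted p = 1.61e-09). In the wild type it had 1.17 and 1.22 CPM in WT_D2 against 10.01 and 9.78 in WT_D0 (log2 change -3.05, adjusted p = 1.64e-09). Ccr7, the receptor gene for entry into T cell zones, had 21.8 and 26.2 CPM in KO_D5 against 71.2 and 66.2 in KO_D0 (log2 change -1.52, adjusted p = 0.000117). Wild-type Ccr7 had 24.3 and 21.02 CPM in WT_D5 against 76.2 and 61.3 in WT_D0 (log2 change -1.60, adjusted p = 0.0001). The KO_D2 calls of Klf3 and Itgae held with the library labelled KO_D2 replicate 1 left out.

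A list of 12 genes held ligand genes of these receptors and the genes Ch25h, Cyp7b1 and Hsd3b7, which encode enzymes acting on lipid ligands. Of the 12, 9 could be tested, and Ccl19, Ccl21a and Ch25h were too low. The counts below include the enzyme genes, whose direction does not give that of a ligand. On day 1, 4 fell and 2 rose in PKR KO spleens, and 3 fell and 1 rose in wild-type spleens. On day 2, 1 fell and 3 rose in PKR KO, and 2 fell and 2 rose in wild-type spleens. On day 5, 1 fell and 2 rose in PKR KO, and 2 fell and 2 rose in wild-type spleens. Of all genes, day 1 had 20.9% lower and 20.7% higher in PKR KO and 22.7% lower and 21.9% higher in wild-type spleens. Day 2 had 25.6% lower and 24.0% higher in PKR KO and 23.0% lower and 22.3% higher in wild-type spleens. Day 5 had 22.1% lower and 22.8% higher in PKR KO and 18% lower and 21.5% higher in wild-type spleens. The day 2 counts in PKR KO spleens were 2 and 3 with the library labelled KO_D2 replicate 1 left out. Vcam1, which encodes the ligand of the integrin of Itga4 and Itgb1 chains, had 9.60 and 10.04 CPM in KO_D1 against 56.5 and 60.00 in KO_D0 (log2 change -2.57, adjusted p = 2.98e-08). In wild-type spleens Vcam1 had 10.7 and 8.49 CPM in WT_D1 against 54.3 and 68.6 in WT_D0 (log2 change -2.68, adjusted p = 2.43e-08). On day 5 it stood at 80.5 and 68.96 CPM in KO_D5 and 78.7 and 66.1 in WT_D5. Madcam1, the ligand gene of the integrin of Itga4 and Itgb7 chains, was low throughout, at 0.451 and 0.334 CPM in KO_D2 against 0 and 0.0260 in KO_D0. It was called higher in KO_D2 (adjusted p = 0.00114), and no fold is given because KO_D0 was at or near 0. Cxcl12, the ligand gene of CXCR4, had 2.28 and 2.39 CPM in KO_D2 against 0.337 and 0.234 in KO_D0 (log2 change 3.00, adjusted p = 3.82e-06). Wild-type Cxcl12 had 0.555 and 1.16 CPM in WT_D2 against 0.199 and 0.159 in WT_D0 (log2 change 2.30, adjusted p = 0.000239). With the library labelled KO_D2 replicate 1 left out, the knockout change of Cxcl12 was 3.03 (adjusted p = 1.94e-05), and Madcam1 was still called (adjusted p = 0.008). No gene of these 4 lists was called between the genotypes by edgeR on any day.

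**Figure D5:**
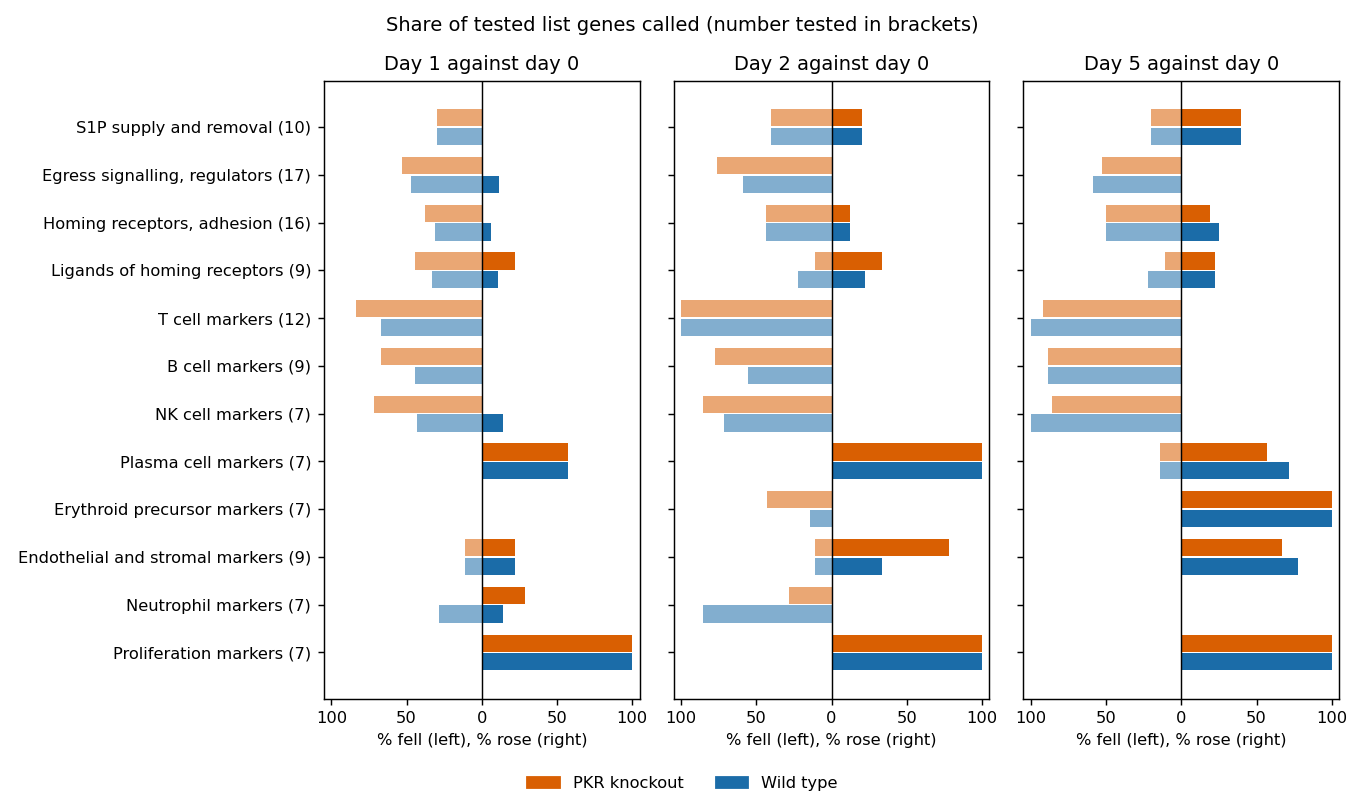
Percent of the tested genes of each list that fell (left, pale) or rose (right) on each treated day against day 0, with PKR KO bars above wild-type bars. All 12 T cell markers fell on day 2 in both genotypes, and all 7 erythroid precursor markers rose on day 5.

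Markers of spleen cell types moved beside these genes. Of 12 T cell markers, 10 on day 1, 12 on day 2 and 11 on day 5 fell in PKR KO spleens, and 8 on day 1, 12 on day 2 and 12 on day 5 in wild-type spleens. Their median on day 2 was -2.56 in PKR KO and -2.46 in wild-type spleens, and S1pr1 had -2.11 in PKR KO and -1.81 in wild-type spleens, a difference that was not tested. Of 9 B cell markers, 6 on day 1, 7 on day 2 and 8 on day 5 fell in PKR KO spleens, and 4 on day 1, 5 on day 2 and 8 on day 5 in wild-type spleens. All 7 plasma cell markers rose on day 2 in both genotypes, to sums of 1319 to 2424 CPM in KO_D2 against 248.7 to 303 in KO_D0, and of 1546 to 2066 in WT_D2 against 264 to 292 in WT_D0. All 7 proliferation genes rose on every treated day in both genotypes. On day 1, 20.7% of all genes were called higher in PKR KO and 21.9% in wild-type spleens. These shares were 24.0% and 22.3% on day 2, and 22.8% and 21.5% on day 5. Called lower were 20.9% in PKR KO and 22.7% in wild-type spleens on day 1, and 22.1% and 18% on day 5. Of 7 neutrophil markers, 2 fell on day 2 in PKR KO and 6 in wild-type spleens. That day, 25.6% of all genes were called lower in PKR KO and 23.0% in wild-type spleens. No T cell, B cell or NK cell marker was at 0 in a whole group.

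The genes whose group means were most like those of each of the 9, among 10337 genes with a mean FPKM of 1 or more, had a Pearson r of 0.954 to 0.995 over the 8 groups. They were Zbtb18, Btg1 and Stk4 for S1pr1, Asl and Ciao1 for S1pr2, Cnot6l, Ankzf1 and Tmed8 for S1pr3, Slc15a4, Herpud2 and Git2 for S1pr4 and Dstyk, Cop1 and Cx3cr1 for S1pr5. They were Esyt1, Cd79a and Siglecg for Klf2, Tmem185b, Wdr1 and Nrbp1 for Cd69, Cyp4f16, Sox4 and Neurl3 for Itgb7 and Stk38, Fam160a2 and Stxbp5 for Itga4. The likeness is a description over 8 means that share libraries, with no test.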

How the data were processed

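Spleen RNA of 16 libraries was analysed, 2 for each of 8 groups. Per the submitters' processing notes, the build was mm10 and the tools were bcl2fastq 2.17.1.14, Trimmomatic, HISAT2 and TopHat; the fragment counter is not given in the sources used here, nor is its annotation. Per the file headers, the deposited tables hold a fragment count, a depth-scaled signal (FPM) and FPKM for each of 142604 transcripts. A fragment can count for several isoforms in the deposited counts, whose sums are 1.48 to 2.12 times the total fragments.

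For each of 55291 symbols the protein-coding transcript with the highest mean count was kept. Of the identifiers, 99.1% were found in GENCODE M21, from which transcript types and GC content were taken. Coordinates of the 9 genes are those of the deposited data. Antisense genes held at most 1.65% of a member's count. Genes were filtered with filterByExpr and tested with edgeR 4.0.16: TMM, robust quasi-likelihood F test with 1 mean for each group over all libraries, 8 residual degrees of freedom, two-sided, Benjamini-Hochberg adjustment over 18745 genes in each of 18 comparisons. The code was tested on simulated data. All adjusted p-values come from this test unless DESeq2 1.42.0 is named. The SE is the log2 change over the square root of F. Named genes other than the 9 were up to 3 called genes with the largest change per pathway list and comparison (days 5 and 2 included), Eif2ak2, and the 3 genes most like each of the 9. Of the genes that this rule names, 2 are not reported here. Alternatives were no filter, DESeq2 size factors, no composition scaling, DESeq2, summed isoforms, a replicate block, a GC correction, both together, and leaving out each library of the groups compared; for pathway genes they were added after seeing the data, as were the list counts without a KO_D2 library and the leaving out of libraries of other groups. The members and lists were chosen with earlier results of these data known. P-values measure the spread between the 2 pools of a group, estimated over all 8 groups, not only those compared, with information shared between genes.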

Additional observations from a re-analysis of the deposited data

How the results depend on the processing

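Of 58 called changes of the 9 genes, 47 were called under each of the 8 other settings and with each library of the compared groups left out, and 671 of 696 alternative values were called in the same direction; none changed sign. Precision is limited by 2 pools per group, and S1pr2, S1pr3 and S1pr5 rest on 76 to 710 fragments per library. The cause of the changes below was not tested.

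Of the 9 genes, no composition scaling called 5 from day 1 to day 2 in wild-type spleens, in place of 3. For knockout against wild type, in place of 0, no filter called 2 on day 1, 1 on day 2, 1 averaged over days and 1 in the day 1 interaction (the difference in change since day 0); no composition scaling called 2 on day 1 and 1 averaged. DESeq2 called 1 on day 1, 1 on day 2 and 1 averaged, and the GC correction with the replicate block called 1 on day 1. Without composition scaling the calls over all genes split into 4719 higher and 2808 lower for knockout day 1 against day 0, in place of 3879 and 3915. For day 2 against day 1 they split into 1705 and 2916 in the knockout, in place of 2112 and 1988, and into 1745 and 6756 in the wild type, in place of 3083 and 2837.

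Of all genes, knockout against wild type gave 4 calls on day 0, 35 on day 1, 0 on day 2, 1 on day 5 and 5 averaged, and 32, 0 and 0 for the interactions of days 1, 2 and 5. No filter gave 63, 432, 63, 208 and 97, and 478, 19 and 156. DESeq2 gave 11, 183, 6, 74 and 13, and 216, 3 and 37. No composition scaling gave 0 on day 0 and 67 on day 1 (24 higher and 43 lower, in place of 27 and 8). Summed isoforms gave 0 on day 0, 12 on day 1, 1 averaged and 3 for the day 1 interaction. The GC correction gave 70 on day 1 and 0 for the day 1 interaction; with the replicate block it gave 2 on day 5, 2 for the day 1 interaction and 1 for the day 5 interaction.

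With 1 library of the compared groups left out, calls over all genes in PKR KO spleens were 5611 to 6724 on day 1, 7504 to 8339 on day 2 and 5813 to 7275 on day 5 against day 0, 2183 to 3749 for day 2 against day 1 and 4641 to 5721 for day 5 against day 2. In wild-type spleens they were 5807 to 7521, 6304 to 7646 and 4626 to 6053, then 3074 to 3974 and 3663 to 4138. Between genotypes they were 0 to 55 on day 0, 4 to 31 on day 1, 1 to 40 on day 2, 0 to 7 on day 5 and 2 to 29 averaged, and 0 to 376, 0 to 14 and 0 to 44 for the interactions. Of the 9 genes, 7 to 8, 8 to 8 and 5 to 6 were called in PKR KO spleens against day 0, then 2 to 3 and 4 to 6, and 7 to 7, 7 to 8 and 5 to 7 in wild-type spleens, then 1 to 2 and 4 to 5. Between genotypes 0 to 2 were called on day 2 and 0 to 1 averaged. Libraries of other groups enter a comparison through the shared spread, and were left out as an alternative added after seeing the data. Of the 9 genes, this gave 2 to 5 calls for wild-type day 2 against day 1 (3 with all libraries), 4 to 6 for knockout day 5 against day 2 (4) and 6 to 7 for knockout day 5 against day 0 (7). Knockout against wild type on day 1 had 0 to 1 calls among the 9 and 14 to 218 among all genes, with 184 without WT_D0 replicate 1 and 218 without WT_D0 replicate 2, in place of 35. The interaction of day 1 had 0 to 95 of all genes and that of day 5 had 0 to 7. In comparisons of their own groups, over all genes, a count moved by over 1.5 times without WT_D1 replicate 1 (3682), WT_D1 replicate 2 (3677) or WT_D2 replicate 1 (3074) for wild-type day 2 against day 1, in place of 5920. It also did so without WT_D2 replicate 2 for wild-type day 5 against day 2 (3663, in place of 5496) and without WT_D5 replicate 2 for wild-type day 5 against day 0 (4626, in place of 7406). For knockout day 2 against day 1 it did so without KO_D1 replicate 1 (2183), KO_D1 replicate 2 (2398) or the library labelled KO_D2 replicate 1 (2630), in place of 4100.

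The replicate numbers of the labels were not taken to pair the libraries. Among 28 pairs of groups, deviations of same-numbered libraries had correlations of -0.275 to 0.393 (median 0.027). Between the genotypes they were 0.393 on day 0, -0.270 on day 1, 0.354 on day 2 and -0.201 on day 5. Pairing within a day therefore cannot be settled from these values. With the replicate block, 5 of the 9 genes were called for day 5 against day 2 in PKR KO spleens, in place of 4, and 0 of all genes between the genotypes on day 0, in place of 4.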
